A study of Mus musculus with 2 samples.

Results

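Phosphoinositide 3-kinases (PI3Ks) of class I add a phosphate to a membrane lipid and so recruit AKT, and the lipid phosphatases remove phosphates from the products. The 9 genes described here were Pik3ca, Pik3cb, Pik3cd and Pik3cg, which encode the catalytic subunits, Pik3r1, Pik3r2 and Pik3r3, which encode regulatory subunits, Inpp4b, which encodes a lipid phosphatase, and Pik3ip1, which encodes a transmembrane inhibitor of PI3K. They were chosen by symbol, with earlier results of these data known. All 9 were found among the 32245 symbols of the count matrix, of which 27162 had at least 1 count in the cells kept. Each was followed across cell classes in a control and a mutant library.

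The cells were sorted for eYFP from mouse embryos at E13.5. The control genotype was Isl1-Cre;R26R-eYFP and the mutant genotype was Isl1-Cre;R26R-eYFP;Pik3caH1047R, so that Cre and the eYFP reporter were shared by both and Pik3caH1047R was carried by the mutant alone. Each genotype had 1 library made from 3 pooled embryos, from the part of the body above the liver, although the tissue label reads pharyngeal arch. Cre was driven by Isl1, which marks cardiopharyngeal mesoderm and also other lineages, so the sort was not limited to a single tissue, and Pik3caH1047R was a Cre-dependent transgene expressed beside the endogenous gene in those lineages. With 1 library per genotype no test between genotypes was possible, and intervals are 95% intervals for counting error only.

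In class I PI3K other than the form with the Pik3cg product, a catalytic p110 subunit is held by a regulatory subunit until an activated receptor or its adaptor binds the complex. Pik3ca encodes p110α, and the H1047R change raises the lipid kinase activity of that subunit. INPP4B removes a phosphate from a lipid made from the product of the kinase. The counts in the matrix hold no allele, so transcripts of the mutant and the endogenous Pik3ca cannot be told apart in them.

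Cells with over 2000 and under 9000 detected genes and under 10% mitochondrial counts were kept, which left 2783 of 4505 control and 3489 of 5357 mutant cells with 63153191 and 69717583 unique molecular identifiers (UMIs, 1 per captured transcript). The median was 20412 UMIs per control cell and 16839 per mutant cell, and 12 cell barcodes occurred in both libraries. The pools differed in sex. Cells with Xist and without Y-linked transcripts (female-like) were 95.5% of the control and 33.6% of the mutant library, and cells of the opposite pattern (male-like) were 0.0359% and 53.3%. Genotype and pool therefore cannot be told apart, and for some genes and classes values are also given below for female-like cells alone. Of the classes named from markers, 7 had at least 50 cells in both libraries and were compared. The endothelial cell (EC)-like class held 147 control and 697 mutant cells and had all 16 of its 16 markers raised. The branchial muscle-like class held 891 and 845 cells, the mesenchyme-like class 594 and 542, the neuron-like class 191 and 467, the epithelium-like class 211 and 302, the cardiomyocyte-like class 54 and 184, and the mesothelium-like class 70 and 66. Marker support was weaker in the branchial muscle-like clusters, which had 5, 5 and 9 of 12 markers raised. Raised markers were 11 of 11 in the mesenchyme-like class and 8 and 9 of 9 in the neuron-like clusters. They were 10 of 10 in the epithelium-like and cardiomyocyte-like classes and 8 of 8 in the mesothelium-like class. Levels are UMIs of a gene per 1000000 UMIs of the class (CPM), and a ratio is the log2 of mutant over control CPM. In bulk sums of this kind, fewer expressing cells and less RNA per cell cannot be told apart. A hepatocyte-like cluster led by Alb and Afp held 0 control and 47 mutant cells. Hepatocyte markers summed to 2.16 CPM in control and 20.9 CPM in mutant EC-like cells, and to 0.766 and 18.5 CPM in branchial muscle-like cells. The part of liver cell transcripts in the values below was not tested.

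The 9 genes lie on 7 chromosomes of GRCm38. Pik3ca spans chr3:32397671-32468486 on the plus strand, Pik3cb chr9:99036654-99140621 on the minus strand, Pik3cd chr4:149649168-149702571 on the minus strand and Pik3cg chr12:32173473-32208659 on the minus strand. Pik3r1 spans chr13:101680563-101768217 on the minus strand, Pik3r2 chr8:70768176-70776713 on the minus strand and Pik3r3 chr4:116221618-116303056 on the plus strand. Inpp4b spans chr8:81342556-82127914 on the plus strand and Pik3ip1 chr11:3330401-3342971 on the plus strand. Inpp4b was the longest, at 785.4 kb, and Pik3r2 the shortest, at 8.5 kb. Only Inpp4b and Pik3ip1 overlapped another gene of the matrix, in both cases on the opposite strand. They overlapped 4930579O11Rik and Gm12592.

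The start regions of Pik3r1 and Pik3cg are shown because the class levels of these 2 genes carry much of what follows. For Pik3r1, RefSeq gave 2 start windows and GENCODE 7 transcripts, and its count is per gene and does not separate starts. Pik3cg was detected mainly in a single compared class. Of the 2 annotated Pik3cg windows, which overlap, the one that holds the motif searched is printed. The other (chr12:32208610-32208909, 40.67% G and C) held 0 matches. Each sequence is 300 bases from RefSeq (GRCm38.p6), 250 before to 50 after a start site, written 5′ to 3′ on the minus strand, with matches to the forkhead box O (FOXO) motif GTAAACA, searched on both strands, in capitals. FOXO factors are transcription factors that AKT keeps out of the nucleus.
Pik3r1, chr13:101768168-101768467: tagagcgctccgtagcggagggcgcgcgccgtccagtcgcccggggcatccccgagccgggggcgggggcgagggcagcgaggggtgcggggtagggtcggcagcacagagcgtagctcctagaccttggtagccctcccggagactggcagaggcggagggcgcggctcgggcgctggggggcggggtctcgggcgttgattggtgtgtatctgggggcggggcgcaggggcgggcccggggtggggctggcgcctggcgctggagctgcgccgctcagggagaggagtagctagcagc
Pik3r1, chr13:101692581-101692880: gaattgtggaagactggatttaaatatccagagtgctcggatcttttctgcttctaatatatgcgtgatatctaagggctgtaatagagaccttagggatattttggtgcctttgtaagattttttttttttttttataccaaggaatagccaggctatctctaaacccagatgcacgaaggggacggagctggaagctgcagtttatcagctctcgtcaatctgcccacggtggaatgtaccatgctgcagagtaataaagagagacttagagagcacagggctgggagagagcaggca
Pik3cg, chr12:32208421-32208720: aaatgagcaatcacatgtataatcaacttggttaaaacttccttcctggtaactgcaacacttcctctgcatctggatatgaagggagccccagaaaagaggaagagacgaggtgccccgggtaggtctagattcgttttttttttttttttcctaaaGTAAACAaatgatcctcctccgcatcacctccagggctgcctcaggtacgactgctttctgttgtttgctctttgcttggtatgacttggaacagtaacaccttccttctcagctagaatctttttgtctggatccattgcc
The upstream Pik3r1 window held 75.67% G and C and the downstream one 43.67%, against a median of 52.67% over all promoters. Of the 15 windows of the 9 genes, 1 held the motif, the Pik3cg window above, and of all 32851 promoters 3.65% did. A match is a run of letters and not evidence of binding.

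Pik3ca, the gene whose H1047R form was the transgene, was counted at similar levels in both libraries in most classes. How far transcripts of the transgene entered this count is not known. In EC-like cells Pik3ca was at 46.6 CPM (39.4 to 54.6) in the control and 45.2 CPM (41.7 to 48.9) in the mutant library, a log2 ratio of -0.04 (-0.30 to 0.22). The intervals overlapped. Its level in branchial muscle-like cells was 31.5 and 29.0 CPM, in neuron-like cells 52.0 and 47.8 CPM and in mesenchyme-like cells 38.8 and 45.9 CPM, with ratios between -0.12 and 0.25. Epithelium-like cells gave 35.9 CPM in the control and 44.2 CPM in the mutant. The ratio was 0.30 (-0.0025 to 0.61), and within the mutant library the level was 30.7 CPM in female-like and 51.5 CPM in male-like epithelium-like cells. Mesothelium-like cells had only 41 and 48 UMIs of it, at 18.9 and 42.3 CPM. In either library Pik3ca was lowest in cardiomyocyte-like cells, at 12.7 and 11.7 CPM. The control value rested on 11 UMIs and was not separate from that of mesothelium-like cells. The highest level was that of neuron-like cells in both libraries, and it did not differ beyond counting error from that of EC-like cells.

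Among the other catalytic subunits, Pik3cb (p110β, which responds to G protein-coupled receptors as well as to receptor kinases) was higher in control EC-like cells, at 31.1 CPM (25.4 to 37.8), than in mutant EC-like cells, at 15.3 CPM (13.3 to 17.5). The ratio was -1.03 (-1.38 to -0.67). Branchial muscle-like cells lay the other way for Pik3cb, at 2.77 CPM (2.14 to 3.53) in the control and 5.54 CPM (4.55 to 6.68) in the mutant, a ratio of 1.00 (0.54 to 1.47). Neuron-like cells gave 19.7 and 19.2 CPM and epithelium-like cells 28.0 and 35.7 CPM, so that neither was past 1.5-fold. The control order therefore had EC-like cells at the top, not separate from epithelium-like cells. In the mutant, epithelium-like cells stood at the top, not separate from mesothelium-like cells. EC-like cells stood below mesothelium-like and neuron-like cells there, and were not separate from the neuron-like cells. Female-like cells alone gave 32.4 CPM in control and 14.3 CPM in mutant EC-like cells.

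Pik3cg (p110γ, known for its role in leukocytes) was detected in EC-like cells and almost nowhere else among the compared classes. It had 48 UMIs at 14.8 CPM (10.9 to 19.6) in control and 83 UMIs at 5.97 CPM (4.76 to 7.41) in mutant EC-like cells, and at most 1.22 CPM in any other compared class. The ratio in EC-like cells was -1.31 (-1.84 to -0.76). With every cell thinned to 5000 UMIs, 8.33% (4.38 to 14.1) of 144 control and 2.56% (1.5 to 4.06) of 665 mutant EC-like cells had a UMI of it, beside 0 of 877 control (which allows a share of up to 0.342%, the limit of 3 counts of the total) and 0.125% of 801 mutant branchial muscle-like cells. Without thinning the shares were 23.8% and 10.6% in EC-like cells and 0.561% and 0.473% in branchial muscle-like cells. The 10 macrophage markers summed to 25.0 CPM in control EC-like cells, with C1qa and C1qc at 0, and to 23.8 CPM in mutant EC-like cells. Erythroid markers summed to 64.1 CPM in control and 49.2 CPM in mutant EC-like cells. The part of blood cell transcripts in the EC-like values of Pik3cg was not tested. Female-like cells gave 15.7 CPM in the control and 7.79 CPM in the mutant, and male-like mutant cells 4.89 CPM. Outside the named classes Pik3cg was at 50.7 CPM in the control and 26.2 CPM in the mutant cells of an unnamed cluster led by Ccl4, Mpo and Tyrobp, which held macrophage and erythroid markers together.

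Pik3cd (p110δ, the other leukocyte catalytic subunit) had only 5 and 12 UMIs in EC-like cells and could not be compared there. In neuron-like cells it was at 25.9 CPM (21.1 to 31.4) in the control and 13 CPM (10.6 to 15.8) in the mutant, a ratio of -0.99 (-1.40 to -0.58). The neuron-like class was made of 2 clusters. The ratio was -1.46 in the cluster led by Ppp1r1c and Neurod1 and -0.42 (-1.03 to 0.21) in the cluster led by Igfbpl1 and Pcsk1n. At a finer clustering resolution of 0.8, neuron-like clusters held 99 control and 324 mutant cells, 49 and 122, 27 and 12, and 16 and 9. The makeup of the neuron-like cells thus differed between libraries, and its part in their values was not tested. Mesenchyme markers summed to 539 CPM in control and 51.1 CPM in mutant neuron-like cells, with all 11 detected in both, and neural crest markers to 478 and 115 CPM, with all 8 detected in both. Their part in the neuron-like values was not tested. In the unnamed cluster with macrophage markers Pik3cd was at 61.0 and 42.6 CPM, above its level in every compared class of the same library. At a finer resolution the macrophage-like cells of that cluster gave 70.9 and 69.8 CPM, while Pik3cg in the same cells was at 70.9 and 36.1 CPM.

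**Figure D1:**
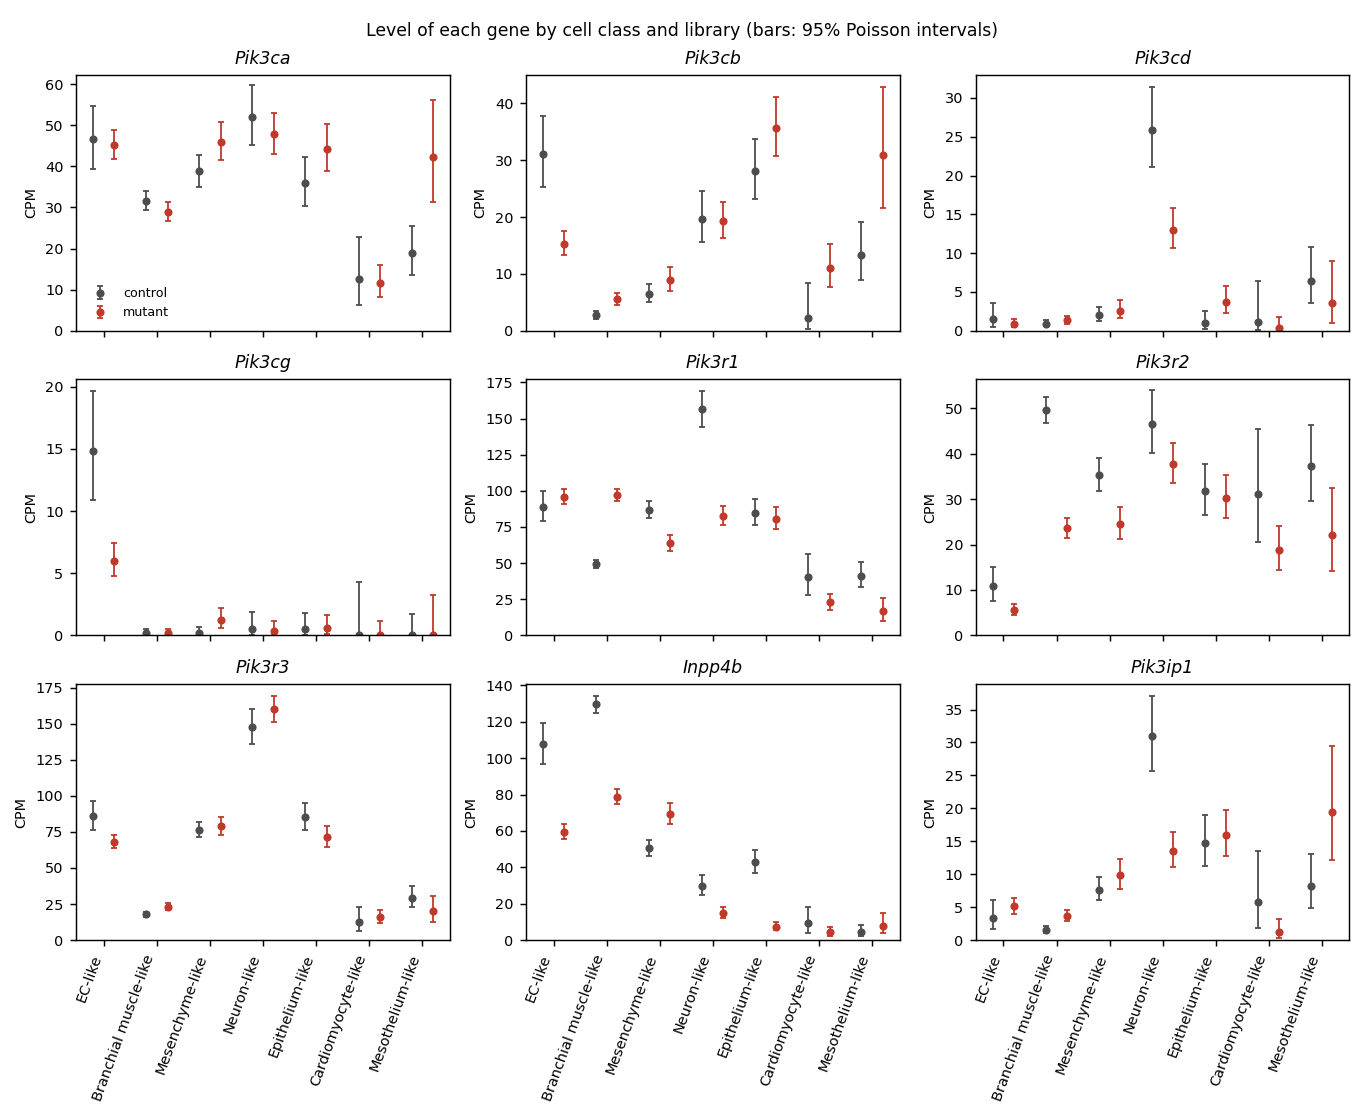
Levels of the 9 genes (CPM, linear axis from 0, own scale in each panel) in the 7 compared classes, control in grey and mutant in red, 1 library each, with 95% Poisson intervals for counting error. Pik3cg stands above 2 CPM in EC-like cells alone, Pik3r3 is highest in neuron-like cells of both libraries, and Pik3r1 in branchial muscle-like cells is below 4 classes in the control and at the top in the mutant.

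Pik3r1 (p85α and its shorter isoforms, the main regulatory subunit in most cells) differed in opposite directions between classes. In branchial muscle-like cells it was at 49.3 CPM (46.5 to 52.2) in the control and 97.1 CPM (92.8 to 102) in the mutant, a ratio of 0.98 (0.87 to 1.08). In neuron-like cells it was at 156 CPM (144 to 169) in the control and 82.7 CPM (76.4 to 89.3) in the mutant, a ratio of -0.92 (-1.08 to -0.76). The highest class was thus neuron-like in the control and branchial muscle-like in the mutant, where it did not differ beyond counting error from EC-like cells. Lower mutant levels were also found in mesothelium-like cells, at 41.4 and 16.8 CPM, and in cardiomyocyte-like cells, at 40.4 and 22.8 CPM. An unnamed cluster outside the compared classes (cluster 4) had 528 and 61 UMIs of Pik3r1, at 57.6 and 31.3 CPM. The ratio there was -0.88 (-1.29 to -0.50). Cluster 4 held 383 control and 87 mutant cells. Female-like cells were 96.6% of its control and 5.75% of its mutant cells, and 85.1% of the mutant cells were male-like. Genotype and sex thus cannot be told apart in it. The mutant mesothelium-like cells had a median of 14512 UMIs against 28113 in the control, and 76.6% against 47.1% of them were in G1, and the part of depth and phase was not tested. Mesenchyme-like cells gave 86.8 and 64.1 CPM, a ratio of -0.44 (-0.60 to -0.28), which was under 1.5-fold. EC-like cells gave 88.8 and 95.8 CPM and epithelium-like cells 84.8 and 80.8 CPM, with intervals that overlapped.

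The higher Pik3r1 level of mutant branchial muscle-like cells was found in each of the 3 clusters of the class. In the largest, led by Msc and Myf5, it was at 40.3 CPM in the control and 81.8 CPM in the mutant. In the cluster led by Pax7 it was at 110 and 211 CPM, and in the cluster of differentiating muscle led by Myh3 and Tnnc2 at 60.5 and 104 CPM. The ratios were 1.02, 0.94 and 0.79. The Pax7 cluster was shallow, with a median of 8864.5 UMIs per cell, against 30315 in the largest and 20433 in the differentiating cluster. The part of depth in the levels between clusters was not tested. In female-like cells of the class the levels were 49.6 and 98.6 CPM, and male-like mutant cells gave 99.1 CPM, so the sexes of the mutant pool did not separate. In neuron-like cells both clusters were lower in the mutant, at 212 and 102 CPM and at 88.4 and 52.3 CPM, but there the sexes of the mutant pool did differ, at 98.6 CPM in female-like and 69.7 CPM in male-like cells, beside 158 CPM in female-like control cells.

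The similar EC-like level of Pik3r1 in both libraries covered clusters that differed in direction. At the finer resolution of 0.8, 3 clusters were EC-like. They held 305 control and 1373 mutant UMIs of Pik3r1, against 288 and 1331 in the EC-like class, so they included cells outside that class. In the largest (cluster 1, 108 control and 517 mutant cells) Pik3r1 was at 68.5 CPM in the control and 86.0 CPM in the mutant, a ratio of 0.33 (0.10 to 0.56). In the second (cluster 12, 36 and 143 cells), in which 5 of 8 arterial and 4 of 6 endocardial markers were raised, it was at 130 CPM in the control and 54.8 CPM in the mutant, a ratio of -1.25 (-1.64 to -0.84). In the third (cluster 17, 19 and 92 cells) it was at 160 and 269 CPM, a ratio of 0.75 (0.24 to 1.30). There 4 of 7 lymphatic markers (Prox1, Flt4, Mmrn1 and Reln) were raised, with 2 of 6 endocardial, 2 of 5 venous and 2 of 5 capillary markers. The lymphatic markers Lyve1, Pdpn and Ccl21a were raised in cluster 1 instead. The third cluster was shallow, with a median of 10126 UMIs in the control and 8082 in the mutant, and ribosomal protein transcripts made up 3.43% and 4.68% of its UMIs against 16.6% in both libraries of the largest. The second cluster had few control cells, and Eln, Col1a1 and Acta2 were among its leading genes, which smooth muscle and fibroblasts also express. It had 6 smooth muscle or mural markers raised, and part of its cells lay outside the EC-like class. The part of those cells in its Pik3r1 levels was not tested.

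Pik3r2 (p85β) was lower in the mutant library in 6 of the 7 compared classes, of which cardiomyocyte-like and mesothelium-like cells had few UMIs of it. It was about equal in epithelium-like cells, at 31.7 and 30.3 CPM. The widest separation was in branchial muscle-like cells, at 49.6 CPM (46.8 to 52.6) in the control and 23.6 CPM (21.5 to 25.9) in the mutant, a ratio of -1.07 (-1.23 to -0.91). There it was lower in all 3 clusters, with ratios of -0.89, -1.44 and -1.89 in the order of clusters given above for Pik3r1, which was higher in the same cells. Of all classes Pik3r2 was lowest in EC-like cells, with 35 and 78 UMIs at 10.8 CPM (7.52 to 15.0) and 5.61 CPM (4.44 to 7.01), a ratio of -0.94 (-1.54 to -0.32). After thinning, 2.78% and 2.41% of EC-like cells had a UMI of it and the ratio shrank to -0.12, so the EC-like difference was not separable at that depth. Mesenchyme-like cells gave 35.3 and 24.6 CPM and neuron-like cells 46.6 and 37.8 CPM, both under 1.5-fold. The neuron-like ratio was -0.24 (-0.56 to 0.08) in female-like cells and -0.03 in thinned cells. Mesothelium-like cells had 81 and 25 UMIs, at 37.3 and 22.1 CPM. Cardiomyocyte-like cells had 27 and 61 UMIs, under 100 over both libraries, at 31.2 and 18.8 CPM. Cluster 4, an unnamed cluster led by Adh1, Myh11 and Wnt2, gave 31.2 and 35.4 CPM, with the uneven sexes given above.

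Pik3r3 (p55γ, a regulatory subunit) was highest in neuron-like cells of both libraries, at 148 CPM (136 to 160) in the control and 160 CPM (151 to 169) in the mutant, and was separate there from every other class. It was low in branchial muscle-like cells, at 18.0 and 23.2 CPM, and in cardiomyocyte-like cells, at 12.7 and 15.7 CPM. In EC-like cells it was at 86.0 CPM (76.2 to 96.7) in the control and 68.2 CPM (64.0 to 72.7) in the mutant, a ratio of -0.33 (-0.53 to -0.14). Cluster 12 of the EC-like cells gave 145 and 77.8 CPM, whereas the largest cluster gave 63.3 and 60.0 CPM, which overlapped. None of the 5 classes with enough UMIs was past 1.5-fold.

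**Figure D2:**
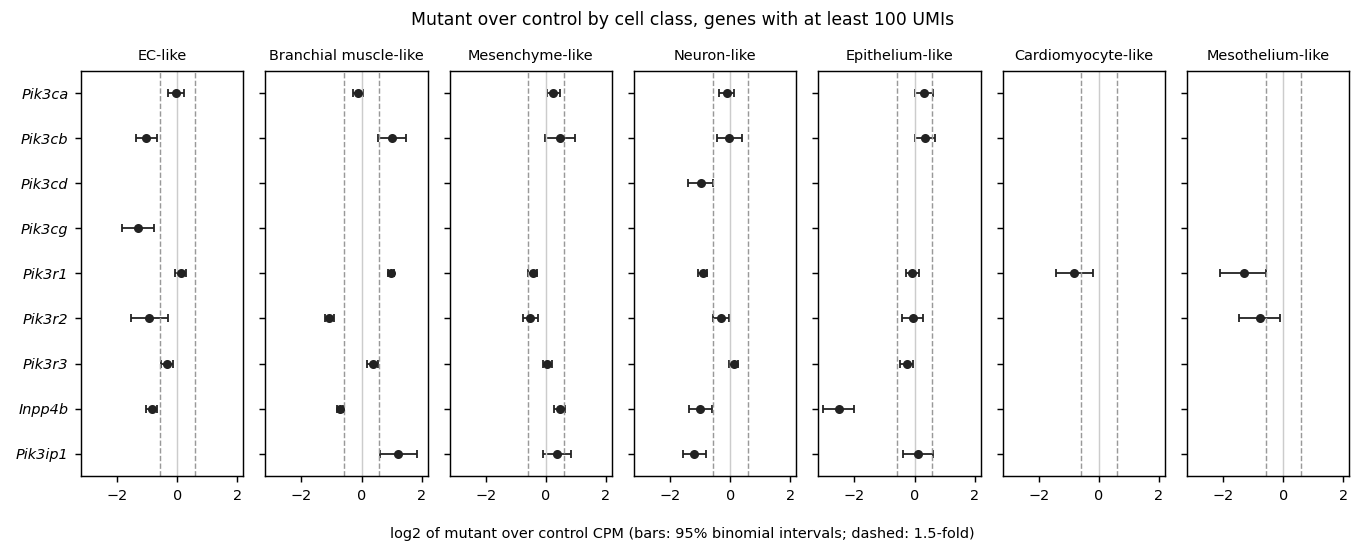
The log2 ratio of mutant over control CPM (x axis, 95% binomial intervals) for each gene with at least 100 UMIs over both libraries, 1 panel per class, with dashed lines at 1.5-fold. Pik3r1 and Pik3r2 lie on opposite sides of 0 in branchial muscle-like cells, and Inpp4b in epithelium-like cells is the point farthest from 0, at -2.53.

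Inpp4b, whose product removes a phosphate from a lipid downstream of PI3K, was lower in the mutant by over 1.5-fold in 4 classes. In EC-like cells it was at 108 CPM (96.6 to 120) in the control and 59.7 CPM (55.7 to 63.9) in the mutant, a ratio of -0.85 (-1.03 to -0.67). That ratio fell under 1.5-fold in G1 cells alone, at -0.49, and as a mean over cells, at -0.56. All 3 EC-like clusters of resolution 0.8 had a lower mutant level. The largest was at 95.3 and 48.6 CPM, the second at 70.4 and 43.0 CPM and the third at 288 and 193 CPM. Branchial muscle markers summed to 123 CPM in control and 23.6 CPM in mutant EC-like cells, with all 12 detected in both, beside 3053 and 2325 CPM in branchial muscle-like cells, where Inpp4b was at 129 and 78.8 CPM. The part of these transcripts in the EC-like value was not tested.

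Most of the Inpp4b of branchial muscle-like cells came from the differentiating cluster led by Myh3. Its level there was 560 CPM in the control and 363 CPM in the mutant. The largest cluster held 32.4 and 19.3 CPM and the Pax7 cluster, which was shallow, 119 and 75.6 CPM. The ratios within the clusters were -0.63, -0.75 and -0.65, so each cluster was lower on its own, while the differentiating cluster held 191 of 891 control and 134 of 845 mutant cells of the class. Assigning each cell to a class by its marker UMIs instead of by cluster brought the class ratio from -0.72 to -0.09. The widest difference of any member was in epithelium-like cells, with 174 UMIs at 42.8 CPM (36.7 to 49.6) in the control and 40 UMIs at 7.43 CPM (5.31 to 10.1) in the mutant, a ratio of -2.53 (-3.06 to -2.02). Mesenchyme markers summed to 363 CPM in control and 143 CPM in mutant epithelium-like cells and branchial muscle markers to 105 and 48.3 CPM. Smooth muscle markers summed to 93.7 and 597 CPM, mesothelium markers to 124 and 366 CPM and the epithelial markers themselves to 2670 and 4159 CPM. The part of these lists in the Inpp4b value was not tested. Neuron-like cells gave 30.0 and 15.0 CPM.

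Mesenchyme-like cells lay the other way, with Inpp4b at 50.5 CPM in the control and 69.2 CPM in the mutant, a ratio of 0.46 (0.28 to 0.63), which was under 1.5-fold. The markers of the class itself summed to 11673 CPM in the control and 3829 CPM in the mutant, and smooth muscle markers to 240.3 and 690.0 CPM. The mutant value was a mean of unlike parts. Female-like mutant cells were at 114 CPM with 296 UMIs, and male-like mutant cells at 44.9 CPM with 219 UMIs, while female-like control cells were at 50.5 CPM. The ratio of male-like to female-like mutant cells was -1.34 (-1.60 to -1.08), a difference inside 1 library. Cartilage markers summed to 1004 CPM in female-like and 525 CPM in male-like mutant mesenchyme-like cells. The part of these marker lists in the Inpp4b values was not tested. The same split in branchial muscle-like cells gave 103 and 71.2 CPM and in EC-like cells 69.3 and 54.6 CPM, both below the 130 and 111 CPM of female-like control cells. The number of embryos behind each sex is not given in the labels, so sex and embryo cannot be told apart.

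**Figure D3:**
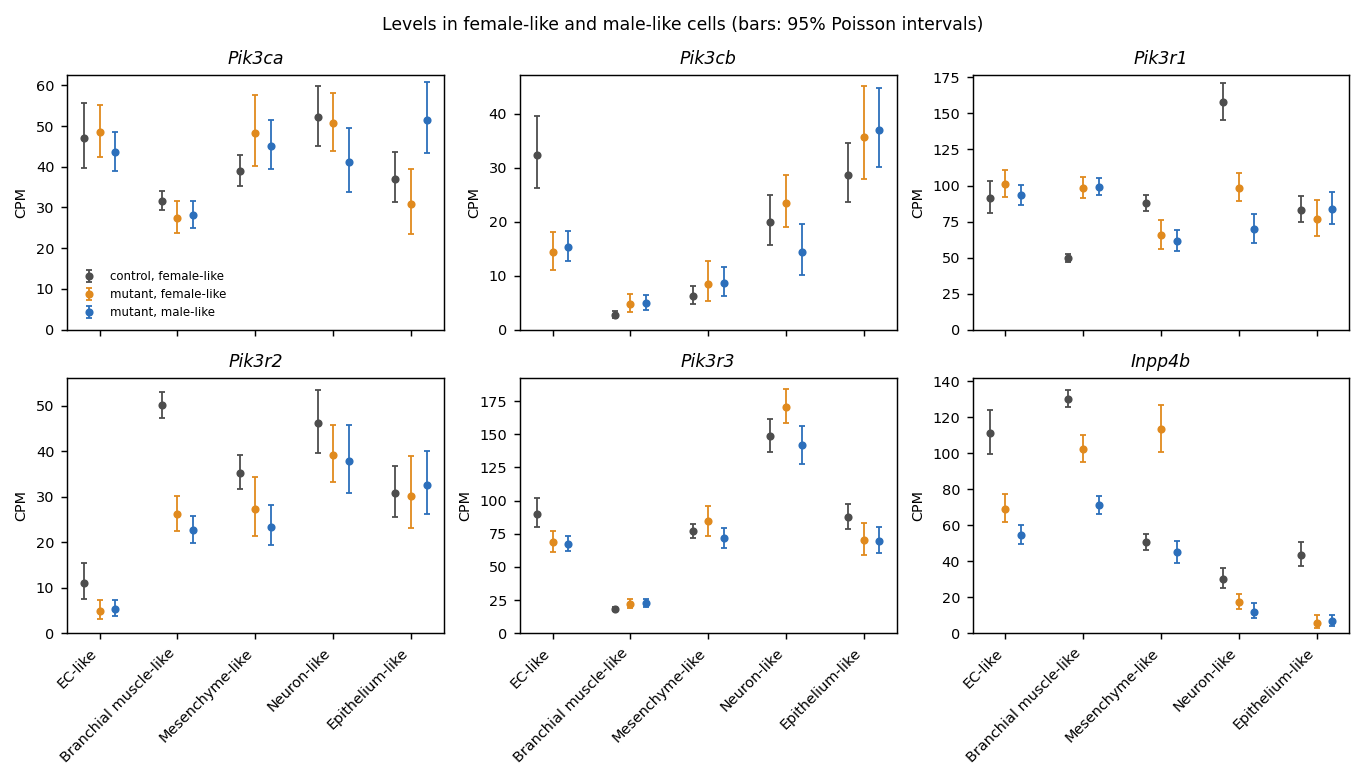
Levels (CPM, linear axes from 0) of 6 genes in female-like control, female-like mutant and male-like mutant cells of 5 classes, with 95% Poisson intervals. Both sexes of the mutant pool stand together for Pik3r1 in branchial muscle-like cells, whereas Inpp4b in mesenchyme-like cells is at 114 CPM in female-like and 44.9 CPM in male-like mutant cells.

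In the unnamed cluster led by Ccl4 and Mpo, Inpp4b was at 142 CPM (131 to 153) in the control and 43.2 CPM (37.6 to 49.4) in the mutant. At the finer resolution it was at 61.5 and 17.7 CPM in the macrophage-like cells and at 238 and 51.2 CPM in the remaining cells of that cluster. The makeup of the cluster differed between libraries, with 96 control and 41 mutant macrophage-like cells beside 78 and 135 others. The mutant level was lower in each part. An unnamed cluster of 78 and 135 cells at that resolution, led by Cpa3, Mpo and Ptprcap, was itself mixed. It had 5 of 7 erythroid and 3 macrophage markers raised. The part of cell makeup in these Inpp4b values was not tested.

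**Figure D4:**
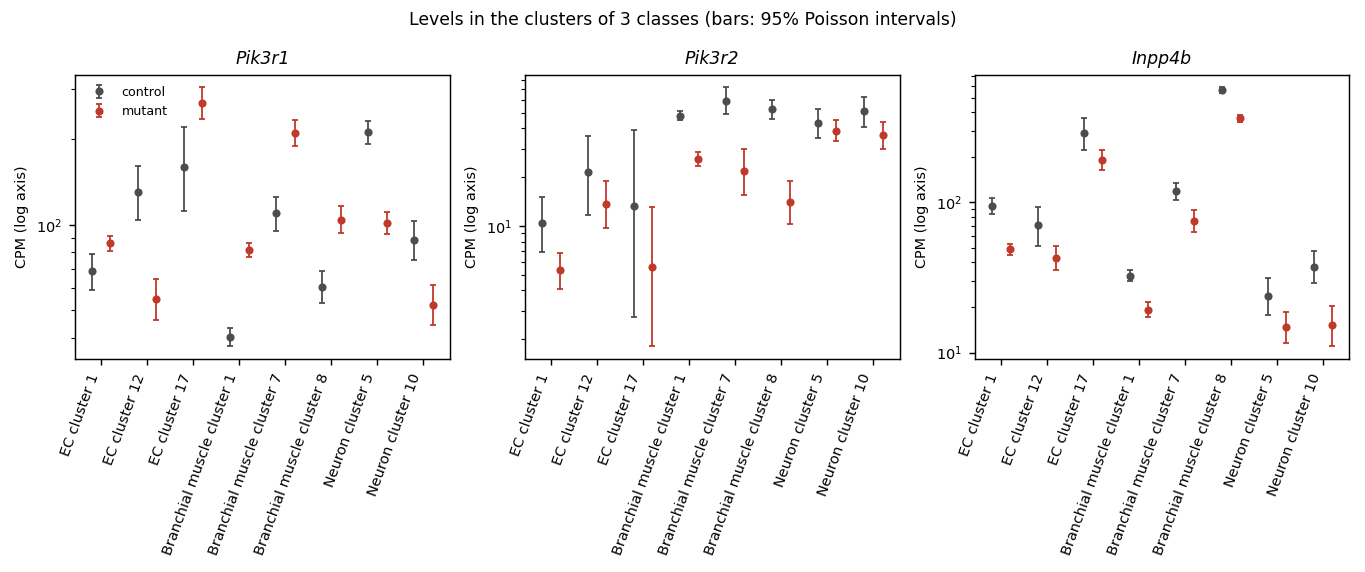
Levels (CPM, log axis) of Pik3r1, Pik3r2 and Inpp4b, control in grey and mutant in red, with 95% Poisson intervals. Shown are the EC-like clusters of resolution 0.8 and the clusters of the branchial muscle-like and neuron-like classes (resolution 0.3). Inpp4b in branchial muscle cluster 8 is at 560 and 363 CPM, far above cluster 1, and the mutant level of Pik3r1 is lower in EC cluster 12 and higher in EC clusters 1 and 17.

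Pik3ip1, which binds the catalytic subunits and lowers PI3K activity, was sparse. In EC-like cells it had 11 control and 71 mutant UMIs, at 3.39 CPM (1.69 to 6.07) and 5.11 CPM (3.99 to 6.45), which overlapped. In branchial muscle-like cells it was at 1.58 CPM (1.11 to 2.17) and 3.66 CPM (2.86 to 4.61), a ratio of 1.22 (0.62 to 1.83). In neuron-like cells it lay the other way, at 31.0 CPM (25.7 to 37.0) in the control and 13.6 CPM (11.1 to 16.4) in the mutant, a ratio of -1.19 (-1.58 to -0.80). Of the 2 neuron-like clusters the difference was wider in that led by Igfbpl1, at 37.4 and 12.6 CPM. Epithelium-like cells gave 14.8 and 16.0 CPM. The branchial muscle-like ratio dropped to 0.14 when cells were classed by marker UMIs.

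A gene was counted where it had at least 100 UMIs in a class over both libraries, and called higher or lower past 1.5-fold. Of the 7 members counted in EC-like cells, 0 were higher and 4 lower (Pik3cb, Pik3cg, Pik3r2 and Inpp4b), with a median ratio of -0.85. Over all 10569 genes counted in EC-like cells 9.48% were higher and 11.1% lower, with a median of -0.08. The members' share was above this background in the lower direction. The members were chosen with earlier results of these data known, so the shares here and below are descriptions and not independent evidence. Pik3cd and Pik3ip1 fell under 100 UMIs there. In branchial muscle-like cells 3 of 7 were higher (Pik3cb, Pik3r1 and Pik3ip1) and 2 lower (Pik3r2 and Inpp4b), against a background of 10.4% higher and 6.84% lower. In mesenchyme-like cells 0 of 7 were past 1.5-fold either way, against 7.39% higher and 9.94% lower. In neuron-like cells 0 of 8 were higher and 4 lower (Pik3cd, Pik3r1, Inpp4b and Pik3ip1), against 4.84% and 13%. In epithelium-like cells 0 of 7 were higher and 1 lower, Inpp4b, against 7.08% and 7.42%. The 2 small classes counted few members. In cardiomyocyte-like cells the only member counted, Pik3r1, was lower, against 11% higher and 10.9% lower. In mesothelium-like cells Pik3r1 and Pik3r2 were counted and both were lower, against 19.5% and 11.4%. Over the 7 classes there were 39 member and class pairs, 3 of them higher and 14 lower. The share over all genes was computed within each class, as given above, and not over the pooled classes.

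The rest of the pathway in EC-like cells was followed with 53 further genes in 4 lists, of which 45 had at least 100 UMIs. In all, 1 was higher and 6 lower, against a background of 9.48% higher and 11.1% lower. The lower share of these 45 genes was near that background, and the higher share was below it. With TMM or median-ratio scaling Mtor, Gab1 and Inpp5e fell under 1.5-fold, which left 1 higher and 3 lower. Of the other PI3K subunits 1 of 5 was lower, Pik3r6, the p84 partner of the Pik3cg product, at 27.4 CPM (22.0 to 33.8) in the control and 13.53 CPM (11.7 to 15.6) in the mutant, a ratio of -1.02. Pik3r6 thus went the way of Pik3cg. Of the phosphoinositide phosphatases 1 of 22 was lower, Inpp5e, at 11.1 and 7.20 CPM. Of the adaptors that link receptors to PI3K, Shc1 was higher, at 57.0 and 106 CPM, and Gab1 lower, at 74.9 and 49.4 CPM, among 4 counted. Of 14 genes of the AKT arm 3 were lower. They were Mtor, the kinase of both mTOR complexes, at 40.7 and 26.7 CPM, its partner Mlst8, at 13.3 and 7.99 CPM, and Sgk3, an AKT-related kinase, at 76.8 CPM (67.5 to 86.9) and 32.8 CPM (29.9 to 36.0).

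The likeness of patterns was measured by Pearson's r of log2(CPM + 5) over 14 points, the 7 classes in 2 libraries, among 11343 genes that reached 20 CPM somewhere. The points share libraries and depth, and r is a description. Closest to Pik3cg were Gimap8, Gimap5 and Gimap4, each with r of 0.99. Closest to Pik3ca were Agpat4, Trip12 and Zfp532, with r of 0.98 each, and closest to Pik3cd were Rgs7 (0.97), Gria4 (0.96) and Cntnap2 (0.96). Iqsec1 (0.96), Afdn (0.91) and Arl4c (0.91) were closest to Pik3cb. Among the regulatory subunits, Pik3r3 was closest to Ccser1, Hpcal1 and Ccnd1, with r of 0.94 each, Pik3r2 to Ptov1 (0.91), Hdac11 (0.90) and Psip1 (0.86), and Pik3r1 to Slc35b1 (0.89), Abhd2 (0.89) and Zfp398 (0.87). Inpp4b was closest to Patl1 (0.92), St3gal4 (0.88) and Rtkn (0.88), and Pik3ip1 to Grm8 (0.94), Cbarp (0.93) and C2cd5 (0.93).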

How the data were processed

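The authors aligned 10x Genomics 5′ single-cell reads to mm10 with Cell Ranger 7.1.0, per the labels, and deposited raw UMI counts per gene and cell, without normalization. The annotation release and the treatment of intronic reads are not given in the sources used here. Cells were filtered by the limits of the study. Integration in Seurat 5.3.0 under R 4.3.3 used canonical correlation anchors, 2000 variable genes and 30 components, with cell-cycle scores regressed and the members and listed genes left out, and cells were clustered at a resolution of 0.3. Clusters were called X-like from marker lists, with at least 3 raised markers. The naming rule was tightened after the clusters were seen, which left 2 clusters unnamed. Doublets were kept, since Scrublet (Scanpy 1.11.5) called 0 control cells and 1 mutant cell, and the 162 and 230 highest-scoring cells were removed as an alternative.

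UMIs were summed per class and library. The sums depend on 3243165 (control) and 13892881 (mutant) UMIs of EC-like cells and on 865985 or more in the other compared classes. Intervals (95%, SciPy 1.17.1) were Poisson (exact) on CPM values, binomial (conditional, exact) on ratios and Clopper-Pearson on shares of cells, and cover counting error only. Genes with at least 100 UMIs over both libraries were called past 1.5-fold. Shares of cells were taken after thinning to 5000 UMIs per cell, so that 3 control and 32 mutant EC-like cells with fewer were dropped. The named genes were the 9 members, pathway genes past 1.5-fold in EC-like cells and the 3 closest patterns for each member. The members and lists were chosen with earlier results of these data known. Positions are from GENCODE M21 (GRCm38) and promoters from RefSeq (GRCm38.p6). Alternatives covered doublets, cell filters, clustering, scaling with edgeR 4.0.16 or median ratios, thinning, sex and phase.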

Additional observations from a re-analysis of the deposited data

Results flagged for a closer look

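For 3 genes the class ratios lay past 1.5-fold in opposite directions with counting intervals that did not overlap. None of these differences between classes was tested, since there was 1 library per genotype. Pik3cb had a log2 ratio of mutant over control of 1.00 in branchial muscle-like and -1.03 in EC-like cells, a difference of 2.03. Pik3r1 had a ratio of 0.98 in branchial muscle-like and -1.30 in mesothelium-like cells, a difference of 2.28, the second resting on 90 control and 19 mutant UMIs. Pik3ip1 had a ratio of 1.22 in branchial muscle-like and -1.19 in neuron-like cells, a difference of 2.41, with 37 and 72 UMIs in the first class and 121 and 105 in the second. When cells were classed by marker UMIs, Pik3ip1 was at 0.14 in branchial muscle-like and Pik3r1 at -0.44 in mesothelium-like cells, each under 1.5-fold.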

How the results depend on the processing

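Across up to 14 alternatives, Pik3cb, Pik3cg, Pik3r2, Pik3r3 and Inpp4b had a lower mutant level in EC-like cells in each, and 0 results changed direction past 1.5-fold. The Pik3cb ratio ranged from -1.19 to -0.81 and the Pik3cg ratio from -1.74 to -1.01. The Pik3ca ratio lay between -0.06 and 0.18 and had no steady sign. Inpp4b moved to -0.67 in thinned cells and, under 1.5-fold, to -0.56 as a mean over cells and -0.49 in G1 cells, Pik3r2 to -0.12 in thinned cells, Pik3r1 to 0.36 as a mean over cells, and Pik3r3 to -0.69 in G1 cells. Without EC-like clusters 12 and 17, an alternative chosen after seeing the data, as was leaving out cluster 17 alone, Pik3r1 was at 0.33 and Pik3r3 at -0.077. In EC-like cells 2 of 5 members were past 1.5-fold among female-like cells and 2 of 5 among G1 cells, where fewer genes reached 100 UMIs, against 4 of 7. Over all classes the count was 10 of 30 among female-like cells and 31 of 61 with a minimum of 1 UMI, against 17 of 39. The share of all genes past 1.5-fold was not computed under these settings, so these counts have no background. The pathway count of 7 became 4 with a mitochondrial limit of 5%, with TMM or with median-ratio scaling, and 11 with thinned cells or a minimum of 1 UMI. TMM moved all EC-like ratios by 0.12. With classes from marker UMIs, Pik3r1 was at -0.44 in mesothelium-like and -0.45 in cardiomyocyte-like cells and Pik3r2 at -0.53 in mesothelium-like cells, each under 1.5-fold. The causes were not tested. No paired analysis was possible because each genotype had 1 library. Depth limited Pik3cd and Pik3ip1 in EC-like cells and most members in cardiomyocyte-like and mesothelium-like cells.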
